A study of Mus musculus with 60 samples.

Results

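The genes described here are 94 nuclear genes of oxidative phosphorylation, taken from the 24378 features of the deposited expression table. They are every feature whose symbol begins with Nduf, Uqcr or Atp5, with Sdh followed by a, b, c or d, or with Cox4 to Cox8. By role, 36 belong to complex I, 4 to complex II, 8 to complex III, 20 to complex IV and 15 to complex V, and 11 are assembly factors or distant relatives such as Atp5s and Atp5sl. They are set beside the 37 features of the mitochondrial chromosome (Chr M), of which 13 are protein-coding.

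Oxidative phosphorylation takes place in the inner mitochondrial membrane. Complex I (NADH dehydrogenase), complex II (succinate dehydrogenase), complex III (cytochrome bc1) and complex IV (cytochrome c oxidase) pass electrons to oxygen and build a proton gradient, and complex V, the ATP synthase, makes ATP from that gradient. Most subunits are encoded in the nucleus and imported, a core set is encoded by mitochondrial DNA, and complex II has nuclear subunits only. In the nervous system, neurons depend on this pathway for most of their ATP, whereas dividing progenitors make heavier use of glycolysis.

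RNA of dissected brain pieces from TH-GFP mouse embryos was sequenced in bulk. These embryos carry a green fluorescent reporter of tyrosine hydroxylase, the enzyme that starts dopamine synthesis. All 60 libraries had that genotype, with 3 libraries in each of 20 groups. The groups were the ventral midbrain, ventral hindbrain, ventral forebrain, alar plate and dorsal midbrain, each taken at 4 daily stages (E11.5 to E14.5). Pieces were cut with GFP visible under ultraviolet light, and those of the ventral midbrain covered domains of the floor and basal plate. The sources used here do not state whether the 3 libraries of a group were separate embryos or pools, so every p-value measures only the spread between libraries. Below, run means the run prefix read from each library's label. The labels do not say whether that prefix stands for a sequencing run or for another batch.

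Values are RPKM, reads per kilobase of listed transcript length per 1000000 assigned reads. Depth, in units of 1000000 assigned reads, ran from 1.58 to 6.43 at E11.5, from 8.67 to 13.1 at E12.5, from 4.97 to 23.6 at E13.5 and from 0.979 to 6.13 at E14.5, so low members are least precise at E11.5 and E14.5. In 3 libraries, features under 1000 bases outside Chr M took 6.21% to 6.74% of reads, against at most 5.11% elsewhere: alar plate E11.5 replicate 4, ventral forebrain E11.5 replicate 6 and alar plate E12.5 replicate 3. The E11.5 pair also held 22717 and 25703 reads per 1000000 (RPM) of erythroid markers. By cutoffs on Nkx2-1, En1 and Hoxa2, region markers went against the label in 6 libraries. The forebrain gene Nkx2-1 was below 1 RPKM in ventral forebrain replicates 4 and 6 at E11.5 and replicates 1 and 2 at E12.5, against a median of 36.8 RPKM in that region. The midbrain gene En1 was 0.452 RPKM in ventral midbrain E11.5 replicate 4, against a median of 67.4 RPKM. The hindbrain gene Hoxa2 reached 7.66 RPKM in alar plate E11.5 replicate 2 and 6.21 RPKM in ventral forebrain E11.5 replicate 4. No cutoff asked for a marker in the ventral hindbrain, alar plate or dorsal midbrain. Hoxa2 was as low as 0.105 RPKM in a ventral hindbrain library (median 6.69 RPKM). Tfap2b was as low as 1.95 RPKM in an alar plate library (median 118 RPKM). The libraries not flagged are thus not all shown to match their labels. From E12.5 on, all ventral and dorsal midbrain libraries carried their own markers, and over all stages Th had a median of 74.3 RPKM in the ventral midbrain and 0.727 RPKM in the dorsal midbrain. Counts of called members at E11.5 and E12.5 were therefore also taken without the 3 libraries rich in short features. They were also taken without the 6 whose markers go against the label. The levels and ratios given keep all 60 libraries.

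The pathway was abundant in every library. The median member had a mean level of 52.6 RPKM over the 60 libraries, against 9.31 RPKM for the 14692 features tested. Median levels were 46.0 RPKM in complex I, 76.4 RPKM in complex II, 68.5 RPKM in complex III, 78.4 RPKM in complex IV and 104 RPKM in complex V, and 8.77 RPKM among the assembly-related genes. The Chr M messages were higher again, with a median of 1856 RPKM. Members are short transcripts, with a median listed length of 833 bases against 2916 bases for all tested features.

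The highest level belonged to Atp5b, the catalytic beta subunit of ATP synthase (mm10 chromosome 10, 128083273 to 128090391, plus strand), at 441 ± 56.0 RPKM (SD over 60 libraries of all groups). Atp5a1, the alpha subunit, had 295 ± 25.7 RPKM. Cox4i1, the ubiquitous subunit 4 of cytochrome c oxidase, had 261 ± 47.1 RPKM, Atp5g3 had 252 ± 42.6 RPKM and Atp5e, the epsilon subunit, had 175 ± 35.4 RPKM. The 4 genes of succinate dehydrogenase lay close together at 86.4 RPKM for Sdhb, 83.2 RPKM for Sdhc, 69.5 RPKM for Sdha and 52.2 RPKM for Sdhd.

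Where complex IV has tissue-specific subunits, the ubiquitous form carried nearly all of the level. Cox4i2, a form known from lung and hypoxic tissue, averaged 0.895 RPKM beside 261 RPKM for Cox4i1. Cox6a2, the heart and muscle form, averaged 0.0349 RPKM beside 167 RPKM for Cox6a1, and was listed at 0 in 55 of 60 libraries. Cox6b2, known from testis, averaged 2.69 RPKM beside 151 RPKM for Cox6b1. Cox7a1, the muscle form, averaged 1.07 RPKM beside 87.9 RPKM for Cox7a2 and 107 RPKM for Cox7a2l. Cox7b2 averaged 0.0401 RPKM beside 49.7 RPKM for Cox7b, and Cox8b 0.0204 RPKM beside 124 RPKM for Cox8a. Cox8c, another testis form, was listed at 0 in all 60 libraries. Ndufa4l2, a hypoxia-inducible relative of Ndufa4, averaged 2.53 RPKM beside 158 RPKM for Ndufa4. Of 11 listed muscle markers, 10 had medians of at most 0.376 RPKM over the 60 libraries, Myod1, Myog and Ckm at 0 RPKM among them, whereas Acta1, skeletal muscle actin, had 6.11, 12.2 and 19.8 RPKM as its lowest, median and highest level. Cox7b2, Cox6a2, Cox8b and Cox8c never reached a group mean of 1 RPKM and were not tested, which left 90 members in every test.

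Atp5g1, Atp5g2 and Atp5g3 encode precursors that differ in their import signals and yield the same mature c subunit, the ring that turns in the ATP synthase. Their mean levels were 44.8 RPKM for Atp5g1, 127 RPKM for Atp5g2 and 252 RPKM for Atp5g3. How the authors' counting treated reads shared between these copies, or with processed pseudogenes of the pathway, is not given in the sources used here, so each value is uncertain to that extent. Because Atp5g1 was called higher and Atp5g2 lower in the ventral than in the dorsal midbrain at E13.5 and E14.5, their promoters are shown with that of Atp5g3, from RefSeq on GRCm38.p6, each running from 250 bases before to 50 bases after the listed start. Capitals mark a match to CGCATGCG or, in Atp5g3, to its looser form CGCANGCG on the reverse strand. Both are the motif type bound by NRF1, a transcription factor of nuclear genes for mitochondrial proteins. The window of Atp5g1 is chr11:96075582-96075881, that of Atp5g2 chr15:102670998-102671297 and that of Atp5g3 chr2:73911277-73911576, all on the minus strand.
Atp5g1: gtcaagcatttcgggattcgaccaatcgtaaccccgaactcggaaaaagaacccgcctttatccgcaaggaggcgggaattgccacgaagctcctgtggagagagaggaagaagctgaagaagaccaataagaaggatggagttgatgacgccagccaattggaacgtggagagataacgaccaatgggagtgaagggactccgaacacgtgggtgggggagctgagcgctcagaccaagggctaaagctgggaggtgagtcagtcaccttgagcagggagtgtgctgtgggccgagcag
Atp5g2: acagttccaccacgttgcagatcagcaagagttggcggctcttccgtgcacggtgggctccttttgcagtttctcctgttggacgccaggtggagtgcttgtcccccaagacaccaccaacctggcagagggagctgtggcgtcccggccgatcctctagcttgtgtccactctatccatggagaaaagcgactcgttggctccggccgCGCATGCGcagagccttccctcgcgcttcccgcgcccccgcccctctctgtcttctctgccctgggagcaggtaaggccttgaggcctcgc
Atp5g3: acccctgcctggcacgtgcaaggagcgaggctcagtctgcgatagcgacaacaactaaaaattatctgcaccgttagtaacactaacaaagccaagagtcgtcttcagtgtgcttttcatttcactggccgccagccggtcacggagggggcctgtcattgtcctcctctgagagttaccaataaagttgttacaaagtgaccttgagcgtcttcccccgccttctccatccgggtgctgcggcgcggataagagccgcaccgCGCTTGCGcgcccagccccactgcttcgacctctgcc

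RefSeq windows were matched for 78 of the 94 members, and motifs were searched on both strands of each 300-base window. The exact palindrome CGCATGCG was found in 10 members (12.8%) and in 1.91% of all 27025 promoters. The looser CGCANGCG, which includes it, was in 27 members (34.6%) and in 8.42% of all promoters. CCGGAAG, the core bound by ETS factors such as GABP, was in 18 members (23.1%) and in 9.12% of all. AAGATGGCG, the YY1 type, was in 7 members (8.97%) and in 1.49% of all. TATAAA was in 7 members (8.97%) and in 14.2% of all. These matches describe letters in a window and are not shown to be bound. The 10 members with the exact palindrome are shown with it in capitals, each in 30 bases on the strand of the gene, so that its neighbouring bases can be compared.
Cox6a1: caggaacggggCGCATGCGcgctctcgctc
Atp5g2: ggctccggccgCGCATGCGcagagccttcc
Uqcrc1: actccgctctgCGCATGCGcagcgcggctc
Atp5l: aaccaataaCGCATGCGcatttcccccact
Ndufa8: gtcgctggagaCGCATGCGcagatggtacc
Atp5k: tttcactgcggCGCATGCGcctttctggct
Uqcr11: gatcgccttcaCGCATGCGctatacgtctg
Ndufa11: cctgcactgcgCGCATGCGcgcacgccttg
Ndufaf4: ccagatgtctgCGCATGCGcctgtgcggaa
Ndufaf5: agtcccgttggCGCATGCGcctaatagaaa
Those windows are chr5:115349101-115349130 for Cox6a1, chr9:108936668-108936697 for Uqcrc1, chr9:44920963-44920992 for Atp5l, chr2:36049329-36049358 for Ndufa8, chr5:108434430-108434459 for Atp5k, chr10:80406808-80406837 for Uqcr11, chr17:56717692-56717721 for Ndufa11, chr4:24897960-24897989 for Ndufaf4 and chr2:140170652-140170681 for Ndufaf5, and that of Atp5g2 lies inside the promoter given above.

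Taken as a sum, the 94 genes held a small and fairly steady share of reads. Their share ran from 0.698% to 0.807% at E11.5 (median 0.745%), from 0.612% to 1.13% at E12.5 (median 0.643%), from 0.638% to 0.806% at E13.5 (median 0.703%) and from 0.599% to 0.675% at E14.5 (median 0.633%). The 1.13% at E12.5 came from alar plate replicate 3, and the next highest library of that stage had 0.687%. The Chr M messages took medians of 3.34%, 2.94%, 3.001% and 2.96% of reads from E11.5 to E14.5. Member shares at E14.5 and at E11.5 did not overlap.

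**Figure D1:**
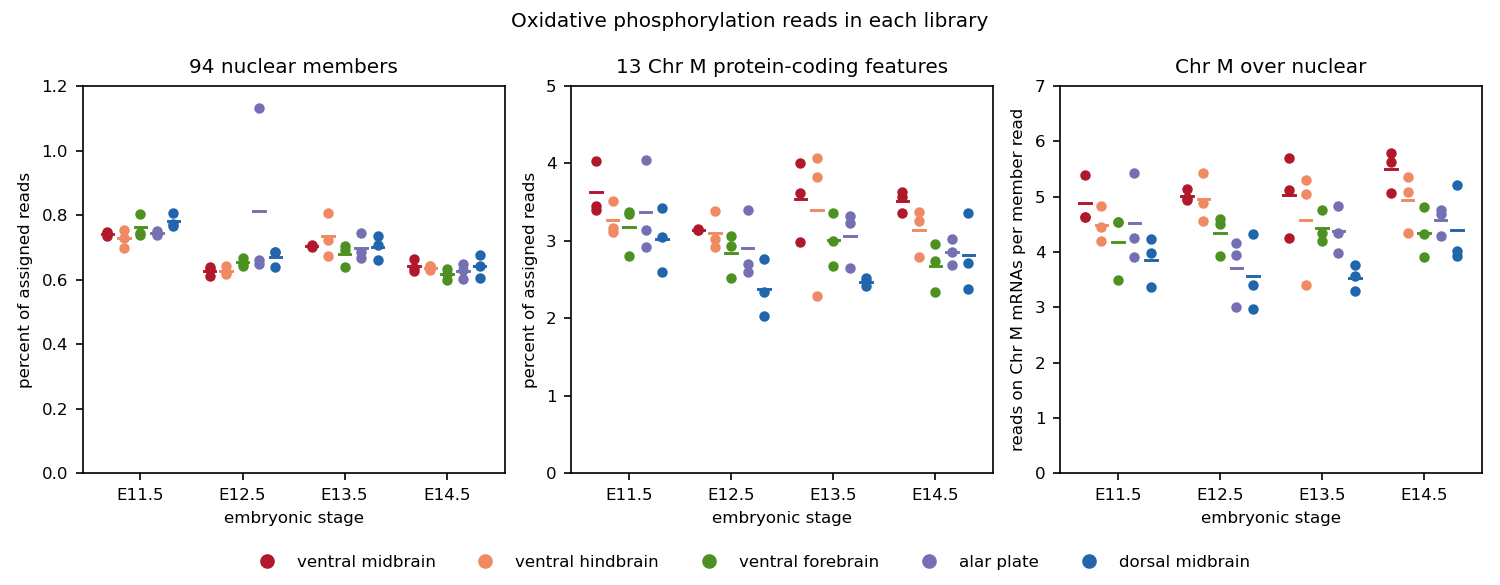
Percent of assigned reads on the 94 nuclear members (left) and on the 13 Chr M protein-coding features (middle), and reads on those Chr M features per member read (right), for each of the 60 libraries (points) with group means (bars), by stage and region. Member shares lie between 0.599% and 0.807% apart from alar plate E12.5 replicate 3 at 1.13%, and the dorsal midbrain has the lowest mean ratio of Chr M to member reads at E11.5, E12.5 and E13.5. At E11.5 the run of the dorsal midbrain was not that of the other regions.

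The spread of each member between groups was described without a test. The SD of the 20 group means on the log2(RPKM + 1) scale had a median of 0.19 over the 84 members with a mean of at least 5 RPKM, against 0.27 over the 9608 features above that level. Sdhb, the iron-sulfur subunit of complex II, was the steadiest, with group means from 75.2 RPKM in the ventral hindbrain at E12.5 to 100.34 RPKM in the dorsal midbrain at E11.5. Ndufaf7, Atp5a1, Ndufa9, Cox7a2 and Uqcrfs1 followed, with SDs of 0.10 to 0.12. The widest ranges belonged to Atp5k, the ATP synthase subunit e (30.3 RPKM in the dorsal midbrain at E14.5 and 77.0 RPKM in the alar plate at E12.5), and to Atp5g2 (84.9 RPKM in the ventral hindbrain at E14.5 and 182 RPKM in the dorsal midbrain at E11.5). Ndufa2, Atp5sl, Cox8a and Uqcrq had SDs of 0.29. The highest group mean of Atp5k, Ndufa2, Cox8a and Uqcrq was that of the alar plate at E12.5, which holds the outlying replicate 3. Below 5 RPKM, Cox6b2 varied more than any of these, with an SD of 0.62.

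**Figure D2:**
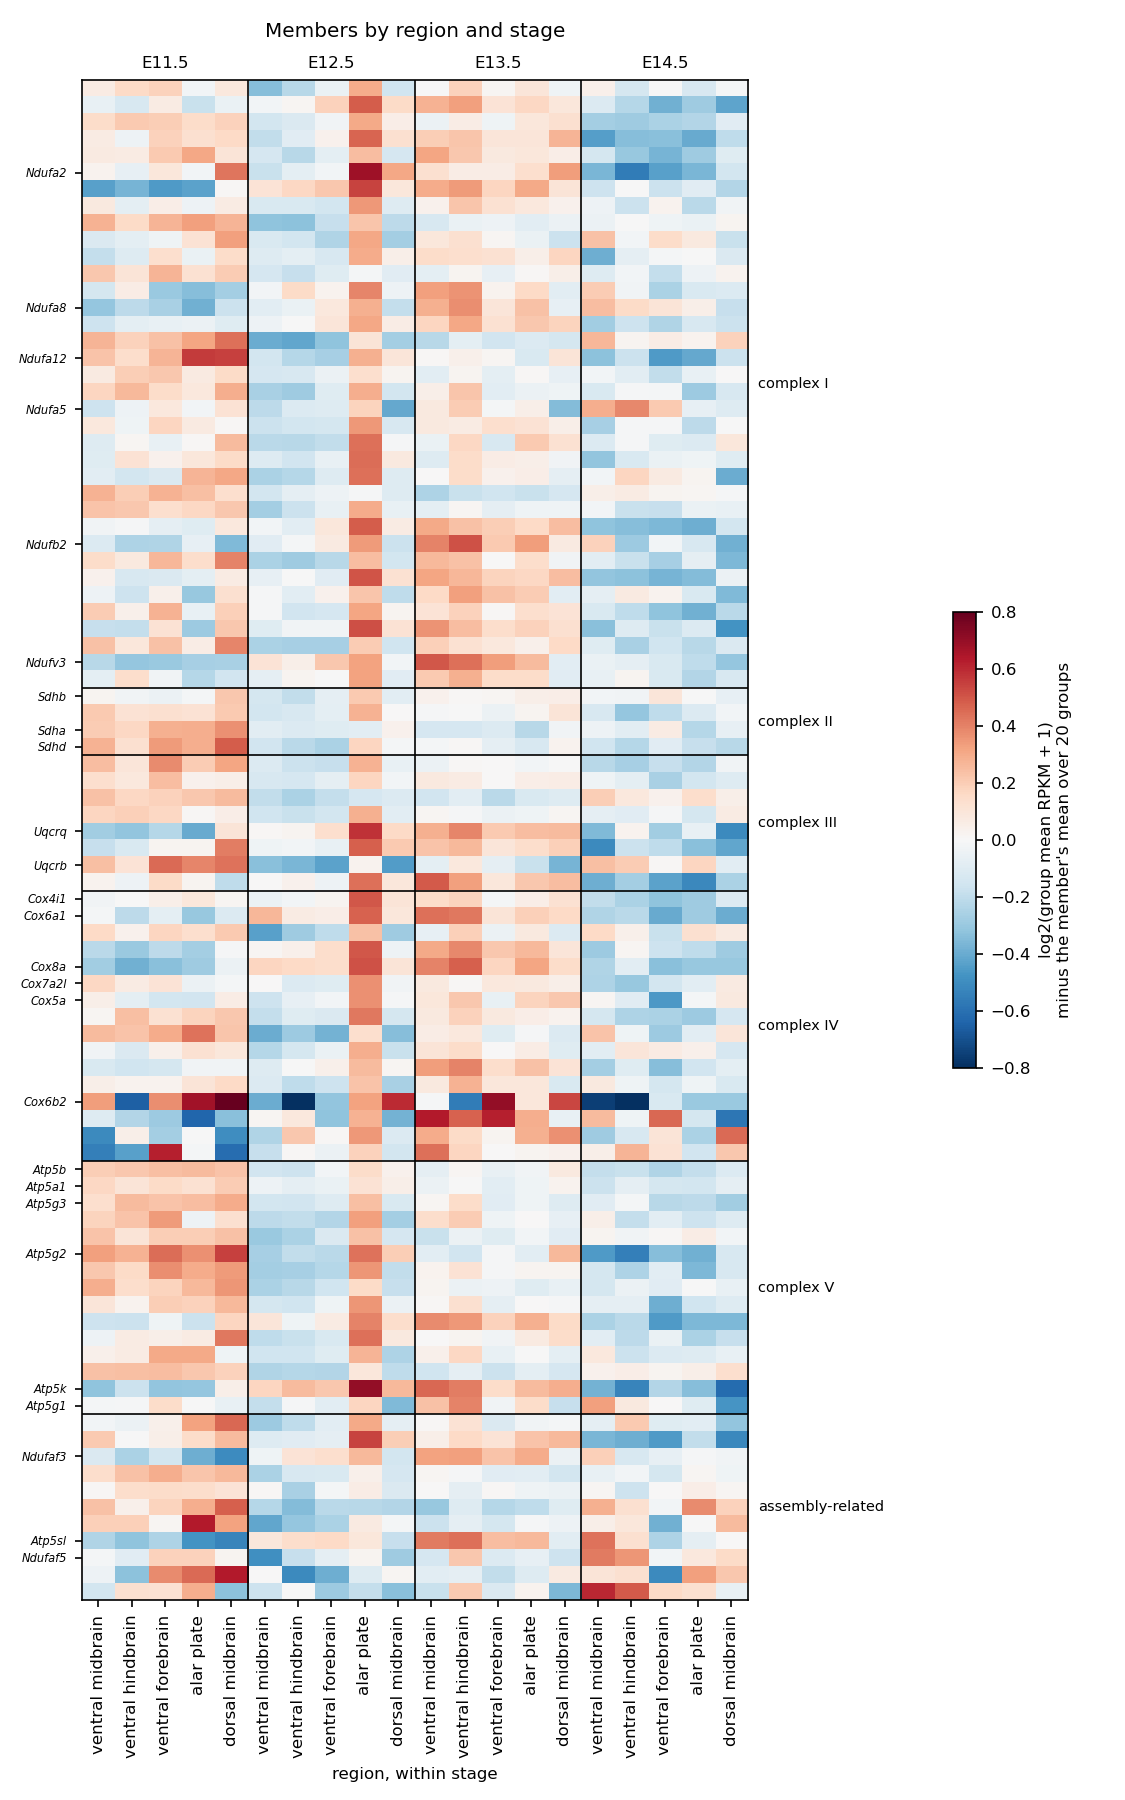
Log2 of the group mean RPKM + 1, minus the member's mean over the 20 groups, for the 90 tested members (rows, by complex and then by level) in each region and stage (columns, n = 3 libraries each). The colour scale stops at 0.8 in either direction. Names are given for some of the members described in the text. The E11.5 and E14.5 blocks differ in tone for most of complex V, the alar plate column at E12.5 is red for most members, and Cox6b2 shows the widest range.

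Whether the 5 regions differed was asked within each stage with limma's F test on log2(RPKM + 1), with Benjamini-Hochberg adjustment over all features tested and a call at an adjusted p under 0.05. At E11.5, 0 of 90 members differed, as did 0.116% of all features. At an unadjusted p under 0.05 there were 17 members, and voom on the recovered reads also called 0. Without the 3 libraries rich in short features, Cox6b2 (adjusted p = 0.0285), Atp5h (adjusted p = 0.0304) and Uqcr10 (adjusted p = 0.0425) differed by limma, beside 1.35% of all features. Without the 6 libraries whose markers go against the label, limma called 0 members and 1.04% of features. At E11.5 the run of the dorsal midbrain was not that of the other 4 regions, and region and run cannot be told apart for it there.

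At E12.5, 2 of 90 members differed between regions, while 33.9% of all features did. Cox6b2 (mm10 chromosome 7, 4751792 to 4753094, minus strand) had 1.31, 1.51 and 1.79 RPKM in the ventral midbrain, 1.12, 0.757 and 0.838 RPKM in the ventral hindbrain and 1.65, 1.58 and 1.83 RPKM in the ventral forebrain. It had 1.95, 2.62 and 4.99 RPKM in the alar plate and 3.19, 6.40 and 2.56 RPKM in the dorsal midbrain. The dorsal midbrain libraries were thus above every ventral library, at levels that remain a small part of the Cox6b1 level, and limma gave an adjusted p of 0.0114. Ndufaf5, a complex I assembly factor, was lowest in the ventral midbrain, with 4.28, 3.51 and 3.82 RPKM, against 4.503 to 7.04 RPKM in the other 12 libraries (limma adjusted p = 0.0258). That call was lost without dorsal midbrain replicate 1 or 2, ventral forebrain replicate 2 or ventral midbrain replicate 2 or 3 (adjusted p at most 0.0909). Without alar plate replicate 3, 20 of 89 members differed, beside 56.3% of all features. Without the 6 libraries whose markers go against the label the same 2 members were called, beside 28.7% of features.

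Set against the mean of the other 4 regions at E12.5, few members were called in any region when all libraries were kept. In the dorsal midbrain Cox6b2 was higher by 0.84 ± 0.21 on the log2 scale (SE; limma adjusted p = 0.0107; 17.3% of features were higher) and Atp5sl lower, with a log2 difference of -0.31 ± 0.11 (limma adjusted p = 0.0495; 13.7% were lower). The call for Cox6b2 rested on dorsal midbrain replicate 2 (0.53 and an adjusted p of 0.1002 without it), and that of Atp5sl was lost in 10 of 15 leave-outs. In the ventral hindbrain Cox6b2 differed by -0.83 ± 0.21 (limma adjusted p = 0.0341; 2.42% of features were lower and 4.26% higher), a call lost without any of the ventral hindbrain or ventral midbrain libraries in turn (adjusted p at most 0.172) and without the 6 libraries whose markers go against the label (0.0708). In the ventral midbrain Ndufaf5 differed by -0.36 ± 0.09 (limma adjusted p = 0.0202; 3.21% were lower and 7.59% higher), lost without ventral midbrain replicate 2 or 3 (at most 0.144). The ventral forebrain had 0 calls in either direction (0.604% of features higher and 2.26% lower; 0 members at an unadjusted p under 0.05). In the alar plate 88 of 90 members lay above the other regions, with a median log2 difference of 0.33 against -0.00245 for all features, and 33 had an unadjusted p under 0.05 while 0 passed the adjustment (1.38% of features were higher and 3.51% lower). Without alar plate replicate 3, 17 of 89 members were higher in the dorsal midbrain and 4 lower (30.1% and 22.4% of features), 2 were higher in the ventral midbrain and 8 lower (1512 and 1188 of 13719 features), and each other region had at most 1 in either direction. With the share of short features as a covariate the dorsal midbrain had 6 higher and 19 lower (4116 and 2943 of 13733 features), so that the direction in which more of its members were called depended on this choice. The alar plate median was 0.01 without replicate 3, in which ribosomal protein genes, another set of short transcripts, took 36833 RPM.

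At E13.5, where all 15 libraries had 1 run prefix, 15 of 90 members differed between regions, beside 59.7% of all features. The dorsal midbrain was lowest for 14 of the 15, and the ventral hindbrain was highest for 10 and the ventral midbrain for 4. They include the complex I subunits Ndufv3, Ndufa1, Ndufa3, Ndufa5, Ndufa8, Ndufb2 and Ndufs6, the complex III subunit Uqcrb, the complex IV subunit Cox5b and the complex V gene Atp5g1. The exception was Cox6b2, with 3.88, 3.75 and 5.68 RPKM in the ventral forebrain and 0.787, 1.02 and 1.99 RPKM in the ventral hindbrain. With the share of short features as a covariate 29 were called, beside 66.0% of features, and 4 when all 60 libraries shared 1 estimate of the spread, beside 34.8%.

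In the contrasts of each region with the other 4 at E13.5, the dorsal midbrain had the most member calls. There, 19 of 90 members were lower (28.5% of features were lower) and 5 were higher (29.7% were higher). The largest changes among members with at least 5 RPKM were in Ndufv3, an accessory subunit of the NADH-binding arm of complex I (log2 difference -0.47 ± 0.07, limma adjusted p = 8.29e-05), Atp5sl (-0.43 ± 0.08), Ndufa5 (-0.42 ± 0.08), Atp5g1 (-0.38 ± 0.06), Ndufaf3 (-0.34 ± 0.09) and Ndufs5 (-0.32 ± 0.10), the last 2 lost without dorsal midbrain replicate 4 (adjusted p of 0.0593 and 0.0965). On the higher side were Atp5g2 (0.35 ± 0.10, limma adjusted p = 0.00796), Ndufa2 (0.24 ± 0.07), Sdha, the flavoprotein of complex II (0.12 ± 0.04), Sdhc, its membrane anchor (0.12 ± 0.04), and Cox6b2 (0.47 ± 0.17). Of these higher calls, that of Atp5g2 was lost only without dorsal midbrain replicate 5 (limma adjusted p = 0.0515). That of Ndufa2 was lost only without replicate 6 (limma adjusted p = 0.109). The call of Sdha was lost without either of these replicates (adjusted p at most 0.0675), and that of Sdhc in 7 of 15 leave-outs. In the ventral hindbrain 14 members were higher (18.3% of features), among them Atp5g1 (0.35 ± 0.06, limma adjusted p = 0.00101) and Ndufaf5 (0.33 ± 0.08, limma adjusted p = 0.00495). Cox6b2 alone was lower there (-0.91 ± 0.17, limma adjusted p = 0.00132; 18.6% of features). Higher calls for Ndufb2, Uqcrb and Ndufa1 in the ventral hindbrain were lost without replicate 6, with log2 differences of 0.15, 0.11 and 0.13 (adjusted p of 0.190, 0.177 and 0.194). The ventral midbrain had 2 higher members, Ndufv3 (0.26 ± 0.07, limma adjusted p = 0.0174) and Ndufa3 (0.21 ± 0.06, limma adjusted p = 0.0232), beside 12.52% of features, and 0 lower, beside 9.47%. Both were lost without ventral midbrain replicate 4, and each without another ventral midbrain library (adjusted p at most 0.0711 and 0.153). The ventral forebrain had 1, Cox6b2 (0.69 ± 0.17, limma adjusted p = 0.0182), beside 5.05% of features higher and 5.77% lower, which without replicate 6 was 0.53 with an adjusted p of 0.144. The alar plate had 0 in either direction (1.53% of features higher and 2.76% lower; 2 members at an unadjusted p under 0.05). These contrasts share libraries with each other and with the ventral to dorsal comparison, so their calls are not independent of it.

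At E14.5, 12 of 90 members differed between regions, beside 38.7% of all features. The smallest p belonged to Cox5a, a nuclear subunit of cytochrome c oxidase. It had 99.8, 106 and 98.5 RPKM in the ventral midbrain, 90.2, 95.7 and 96.3 RPKM in the ventral hindbrain, 71.4, 69.6 and 76.3 RPKM in the ventral forebrain, 102, 96.3 and 98.5 RPKM in the alar plate and 101, 106 and 109.6 RPKM in the dorsal midbrain. All 3 ventral forebrain libraries were below all 12 others (limma F test, adjusted p = 0.000143). Ndufb2, Uqcrq, Ndufa5, Ndufa8 and Atp5g1 were lowest in the dorsal midbrain, while Cox7a2l and Sdhc were highest there. These genes were named after their values were seen. The ventral and dorsal midbrain shared 1 run at this stage and the other 3 regions another.

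The ventral midbrain, where dopamine neurons arise, was then compared with the dorsal midbrain within each stage and run. In bulk tissue, fewer cells of a type and less RNA per cell cannot be told apart in any of these values. At E12.5, 0 of 90 members were higher in the ventral midbrain (11.51% of features were) and 1 was lower (12.3% of features were), Cox6b2, with a log2 difference of -0.92 ± 0.27 (limma adjusted p = 0.0253). That call was lost when dorsal midbrain replicate 1 or 2 or any ventral midbrain library was left out, and was -0.61 with an adjusted p of 0.115 without dorsal midbrain replicate 2. Only 2 members had an unadjusted p under 0.05, and voom also called 0 higher and 1 lower. Without alar plate replicate 3, which widens the spread that all regions of the stage share, 1 member was higher (18.3% of features) and 21 were lower (24.9%). The higher one was Cox6a1, with 192, 200.1 and 199.8 RPKM in the ventral midbrain and 168, 189 and 166 RPKM in the dorsal midbrain (0.18 ± 0.07, limma adjusted p = 0.0473). Among the lower ones was Ndufa2, with 55.7, 53.9 and 60.3 RPKM in the ventral midbrain against 79.7, 90.3 and 69.5 RPKM in the dorsal midbrain (-0.48 ± 0.10, limma adjusted p = 0.00332), and Atp5g2 (-0.46 ± 0.10, limma adjusted p = 0.00411). The median member differed by -0.09 and the median feature by -0.05 at this stage, with or without that library. With the share of short features as a covariate the median member differed by 0.04 instead, with 10 members higher (16.4% of features) and 3 lower (23.2%), so the sign of the members' median depended on this choice.

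At E13.5, 14 of 90 members were higher in the ventral midbrain, where 26.0% of features were, and 2 were lower, where 26.8% were. Ndufv3 (mm10 chromosome 17, 31520115 to 31531331, plus strand) had 33.8, 33.8 and 32.3 RPKM in the ventral midbrain and 20.6, 20.7 and 24.4 RPKM in the dorsal midbrain. Its groups were well apart, with a log2 difference of 0.59 ± 0.09 (limma adjusted p = 0.000117). Atp5g1 had 50.3, 52.8 and 54.0 RPKM in the ventral midbrain and 34.0, 39.9 and 42.9 RPKM in the dorsal midbrain (0.42 ± 0.08, limma adjusted p = 0.000547). Ndufa5, an accessory subunit of the matrix arm of complex I, had 45.9, 45.6 and 41.8 RPKM in the ventral midbrain and 32.5, 30.6 and 35.6 RPKM in the dorsal midbrain (0.42 ± 0.10, limma adjusted p = 0.00272). Neither gene overlapped between the regions. Ndufa1, a small membrane-arm subunit, had 70.9, 67.8 and 64.6 RPKM in the ventral midbrain and 46.8, 52.8 and 52.3 RPKM in the dorsal midbrain (0.41 ± 0.09, limma adjusted p = 0.00237). Atp5sl, which encodes a complex I assembly protein, had 9.53, 8.48 and 7.67 RPKM in the ventral midbrain and 5.58, 5.15 and 6.57 RPKM in the dorsal midbrain (0.50 ± 0.11, limma adjusted p = 0.00145). Ndufaf3 also rose (0.37 ± 0.12, limma adjusted p = 0.0189). Below 5 RPKM, Ndufa4l2 had 5.48, 3.20 and 4.24 RPKM in the ventral midbrain and 2.49, 2.19 and 2.13 RPKM in the dorsal midbrain (0.68 ± 0.18, limma adjusted p = 0.00663).

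Of the lower members at E13.5, Atp5g2 had 110.4, 121 and 119.9 RPKM in the ventral midbrain and 132, 158 and 157 RPKM in the dorsal midbrain (log2 difference -0.34 ± 0.12, limma adjusted p = 0.0318). The libraries of the regions were apart, but the call was near the threshold: it was lost without any ventral midbrain library or without dorsal midbrain replicate 5 or 6 (adjusted p at most 0.104). Ndufaf3 was lost without dorsal midbrain replicate 4 or ventral midbrain replicate 4 or 5 (at most 0.0803), and Ndufv3, Atp5sl, Ndufa5, Atp5g1 and Ndufa1 were called in all 15 leave-outs. By complex, 8 of 36 complex I genes were higher and 1 lower, 0 of 4 complex II genes changed, 1 of 8 in complex III and 2 of 16 in complex IV were higher, complex V had 1 higher and 1 lower of 15, and 2 of 11 assembly-related genes were higher. The median member differed by 0.04, the median feature by -0.01. With the share of short features as a covariate 25 members were higher and 7 lower (27.9% and 29.7% of features), and with 1 spread for all 60 libraries 4 and 0 (16.3% and 16.8%).

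At E14.5, 7 members were higher in the ventral midbrain, where 18.8% of features were, and 3 were lower, where 20.5% were. Atp5g1 had 59.8, 60.6 and 47.7 RPKM in the ventral midbrain and 27.0, 27.6 and 40.5 RPKM in the dorsal midbrain, a log2 difference of 0.82 ± 0.17 (limma adjusted p = 0.00159). Ndufb2, a membrane-arm subunit of complex I, had 42.4, 36.2 and 44.3 RPKM in the ventral midbrain and 24.5, 27.0 and 30.4 RPKM in the dorsal midbrain (0.57 ± 0.12, limma adjusted p = 0.00225). Ndufa8 had 69.3, 52.7 and 60.1 RPKM in the ventral midbrain and 46.7, 39.6 and 48.0 RPKM in the dorsal midbrain (0.43 ± 0.10, limma adjusted p = 0.00489). In these 3 genes every ventral midbrain library was above every dorsal midbrain library, and each was called in all 15 leave-outs. Atp5s, the coupling factor B of the ATP synthase, had 7.64, 6.09 and 5.68 RPKM in the ventral midbrain and 1.98, 4.73 and 4.39 RPKM in the dorsal midbrain (0.72 ± 0.25, limma adjusted p = 0.0332), and was 0.42 with an adjusted p of 0.149 without dorsal midbrain replicate 2. Ndufc2 (0.42 ± 0.13, limma adjusted p = 0.0198), Ndufa5 (0.41 ± 0.14, limma adjusted p = 0.0313) and the complex III subunit Uqcrb were also higher. Without 1 of the midbrain libraries, the adjusted p reached 0.0802 for Ndufc2 (without dorsal midbrain replicate 3 or ventral midbrain replicate 2) and 0.153 for Ndufa5 (without dorsal midbrain replicate 3 or ventral midbrain replicate 2 or 4).

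On the lower side at E14.5, Cox7a2l, which helps to join complexes III and IV, had 87.8, 87.5 and 93.6 RPKM in the ventral midbrain and 113, 108 and 117 RPKM in the dorsal midbrain (log2 difference -0.32 ± 0.10, limma adjusted p = 0.0184). Atp5g2 had 82.8, 97.9 and 90.7 RPKM in the ventral midbrain and 111, 101 and 129 RPKM in the dorsal midbrain (-0.32 ± 0.11, limma adjusted p = 0.0348). Ndufb11 had 45.5, 36.3 and 50.4 RPKM in the ventral midbrain and 53.2, 52.4 and 55.0 RPKM in the dorsal midbrain (-0.29 ± 0.11, limma adjusted p = 0.0424). Libraries of the 2 regions did not overlap in these genes. The calls were lost without dorsal midbrain replicate 4 or ventral midbrain replicate 2 or 3 for Cox7a2l (adjusted p at most 0.0630), without dorsal midbrain replicate 2 or 4 or ventral midbrain replicate 2 or 4 for Atp5g2 (at most 0.158), and in 8 of 15 leave-outs for Ndufb11 (at most 0.208). With the share of short features as a covariate, Atp5g2 differed by -0.15 (limma adjusted p = 0.463) and Cox7a2l had an adjusted p of 0.241. In that fit 6 members were higher and 0 lower (9.66% and 7.11% of features). Median-of-ratios scaling gave 10 higher and 1 lower (20.3% and 18.2% of features). The median member differed by 0.03, the median feature by -0.05.

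**Figure D3:**
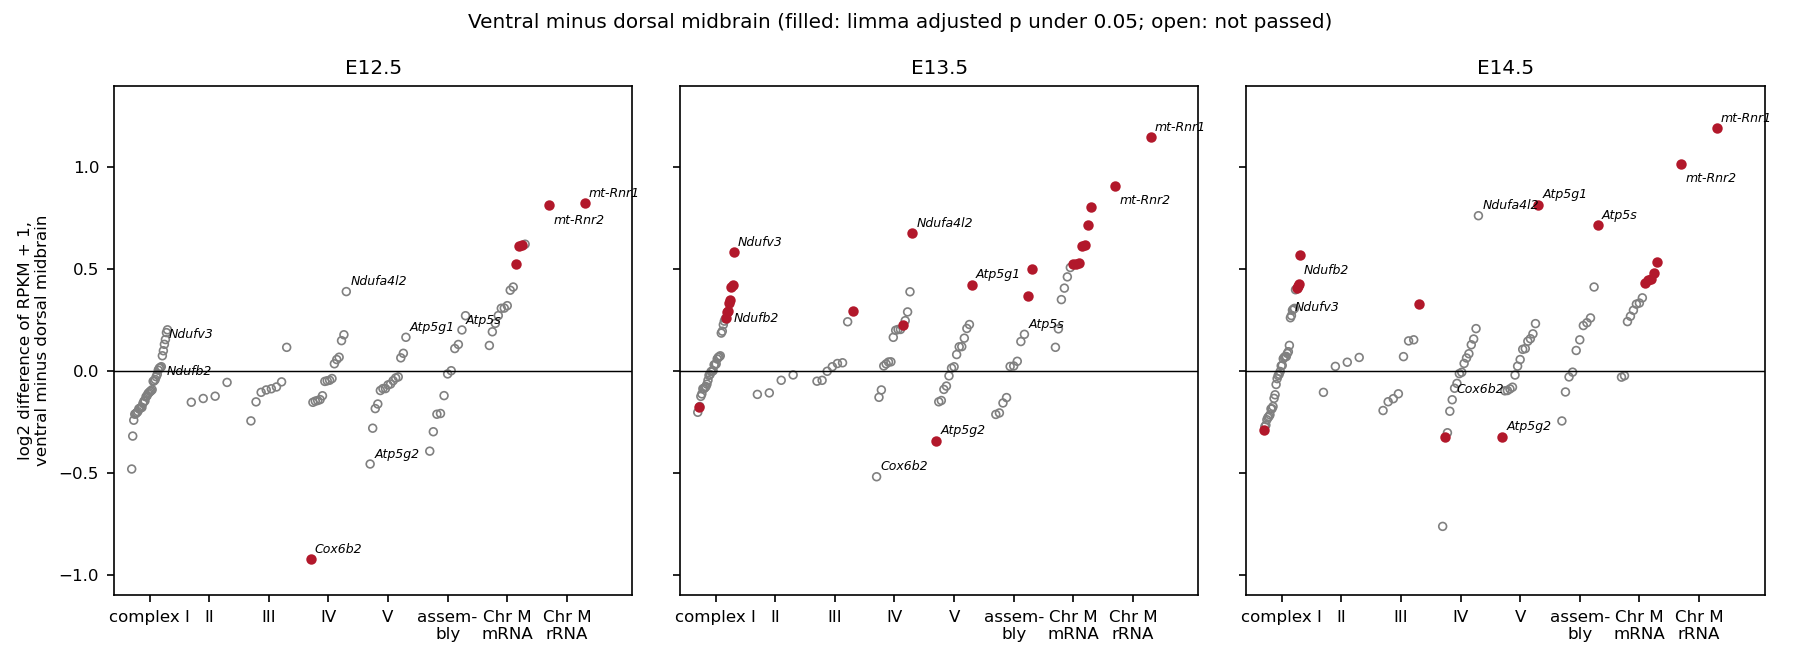
Difference of the ventral midbrain and dorsal midbrain group means of log2(RPKM + 1) for each tested member, by complex, and for the Chr M messages and rRNAs, at E12.5, E13.5 and E14.5 (n = 3 libraries per region; filled points passed an adjusted p of 0.05 in limma). Member points lie on both sides of 0 in every panel, while most Chr M points and both rRNAs lie above it.

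Some members were called at both later stages. Atp5g1, Ndufa5, Ndufa8, Ndufb2 and Uqcrb were higher in the ventral midbrain at both E13.5 and E14.5, which is 35.7% of the 14 at E13.5 and 71.4% of the 7 at E14.5. The same overlap over all features is not given here, so these shares are not read as a trait of the members. Ndufa5 had 58.0, 47.1 and 49.9 RPKM in the ventral midbrain and 45.9, 30.8 and 40.6 RPKM in the dorsal midbrain at E14.5. Uqcrb had 47.7, 51.1 and 48.9 RPKM in the ventral midbrain and 38.3, 41.2 and 40.5 RPKM in the dorsal midbrain at E13.5, and 64.7, 58.7 and 61.7 RPKM against 48.6, 45.0 and 53.5 RPKM at E14.5. Atp5g2 was the member that was lower at both stages. Counting only libraries that did not overlap, the ventral midbrain was above the dorsal midbrain for 5, 26 and 13 of 90 members at E12.5, E13.5 and E14.5 (22.5%, 31.5% and 22.4% of features) and below it for 28, 12 and 7 (31.5%, 32.5% and 25.3% of features). The change in the ventral to dorsal difference between E14.5 and E12.5, tested as an interaction in limma, was called for 0 members (0.102% of features were called upward and 0.0340% downward; 6 members had an unadjusted p under 0.05 and voom called 0). For Atp5g1 it was 0.65 ± 0.22 (limma adjusted p = 0.275).

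The c-subunit genes were also set side by side within each library. The RPKM ratio of Atp5g1 to Atp5g2, a description with no test, averaged 0.282, 0.378, 0.447 and 0.622 in the ventral midbrain from E11.5 to E14.5. In the ventral hindbrain it averaged 0.296, 0.407, 0.531 and 0.555, in the ventral forebrain 0.290, 0.397, 0.354 and 0.454, and in the alar plate 0.279, 0.309, 0.424 and 0.448. In the dorsal midbrain it averaged 0.236, 0.243, 0.261 and 0.277. From E12.5 on, the lowest ventral midbrain library was above the highest dorsal midbrain library at every stage. Atp5g1 and Atp5g2 were called in opposite directions between these regions at E13.5 and E14.5, so at those stages the ratio restates those calls. Atp5g3, the most abundant of them, had 261, 223 and 219 RPKM in the ventral midbrain and 211, 203 and 203 RPKM in the dorsal midbrain at E14.5, a difference that did not pass (limma adjusted p = 0.0741).

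**Figure D4:**
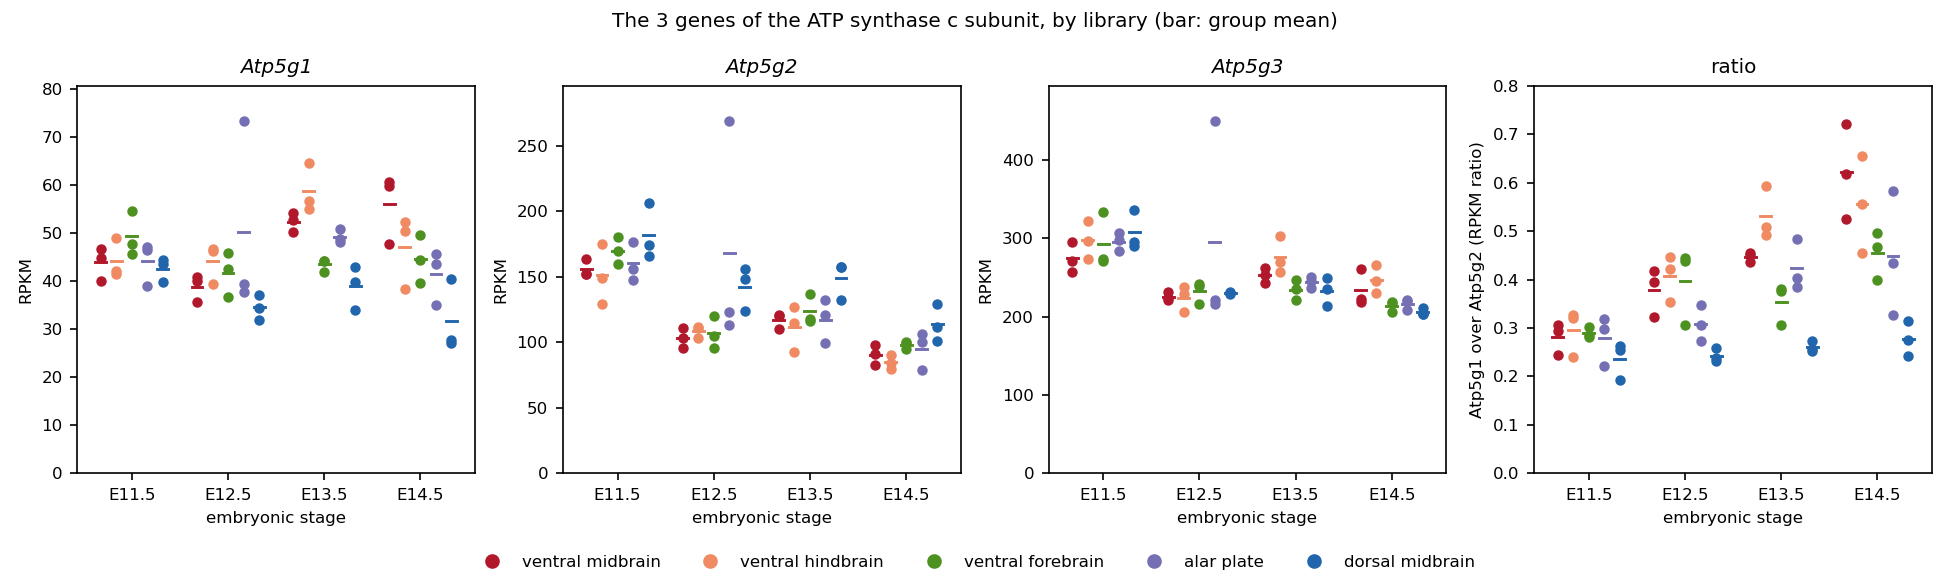
RPKM of Atp5g1, Atp5g2 and Atp5g3, and the ratio of Atp5g1 to Atp5g2, in each library (points; bars are group means, n = 3) by stage and region. The ratio averages 0.622 in the ventral midbrain and 0.277 in the dorsal midbrain at E14.5, and the high alar plate point of each gene at E12.5 is replicate 3.

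Across time, most members were lower at the end of the series than at its start. In the mean of the 5 regions, 57 of 90 members fell at E14.5 against E11.5, where 41.3% of features did, and 9 rose, where 34.9% did. The median log2 difference was -0.20 for members and -0.06 for all features. Without the 3 libraries rich in short features 59 fell (41.7% of features) and 11 rose (35.8%), and without the 6 libraries whose markers go against the label 52 fell (40.4%) and 7 rose (34.7%). In every region the run at E14.5 was not that at E11.5, so stage and run cannot be told apart within a region. The E11.5 dorsal midbrain shared its run with the alar plate, ventral forebrain and ventral hindbrain of E14.5. The change of run thus differed between regions. With the share of short features as a covariate, 29 of 90 members fell (32.2%, against 36.5% of features) and 14 rose (15.6%, against 31.9%), and the median was -0.07 for members and -0.02 for all features.

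In complex V, 14 of 15 genes fell. Atp5b had a lowest, median and highest level of 346, 388 and 439 RPKM over the 15 libraries of E14.5, against 496, 512 and 542 RPKM at E11.5, so the stages did not overlap (log2 difference -0.41 ± 0.04, limma adjusted p = 7.28e-14). Atp5g2 had 78.4, 97.9 and 129 RPKM at E14.5 and 129, 164 and 206 RPKM at E11.5 (-0.76 ± 0.08, limma adjusted p = 2.55e-12). Atp5g3 had 203, 219 and 265 RPKM at E14.5 and 257, 296 and 337 RPKM at E11.5 (-0.39 ± 0.06, limma adjusted p = 9.57e-08). Atp5j2, the subunit f of the membrane part, had 78.3, 94.02 and 124 RPKM at E14.5 and 114, 136 and 161 RPKM at E11.5 (-0.47 ± 0.07, limma adjusted p = 4.1e-08). Atp5g1 was the exception, with 27.0, 44.3 and 60.6 RPKM at E14.5 and 39.0, 44.8 and 54.6 RPKM at E11.5 (-0.05 ± 0.07, limma adjusted p = 0.497).

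In complex II, 3 of 4 genes fell. Sdha had 57.2, 65.4 and 75.6 RPKM at E14.5 (lowest, median and highest) and 69.6, 82.8 and 91.0 RPKM at E11.5 (-0.33 ± 0.03, limma adjusted p = 1.09e-15), and Sdhd, the other membrane anchor, had 41.5, 45.2 and 51.6 RPKM at E14.5 and 51.8, 64.3 and 82.3 RPKM at E11.5 (-0.48 ± 0.05, limma adjusted p = 1.35e-10). Sdhaf1, which helps to place the iron-sulfur clusters of complex II, had 8.03, 10.7 and 14.9 RPKM at E14.5 and 11.02, 16.3 and 19.2 RPKM at E11.5 (-0.52 ± 0.07, limma adjusted p = 3.37e-08). The stages overlapped for Sdha and Sdhaf1 and were just apart for Sdhd. In complex III 7 of 8 genes fell, and in complex IV 6 of the 16 tested fell and 2 rose.

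Complex I was mixed, with 23 of 36 genes lower and 3 higher. Ndufa12, an accessory subunit of its matrix arm, had 26.3, 37.8 and 47.2 RPKM at E14.5 and 45.1, 63.0 and 75.6 RPKM at E11.5 (-0.67 ± 0.08, limma adjusted p = 1.23e-09). Ndufa2 had 34.3, 51.5 and 60.02 RPKM at E14.5 and 55.0, 66.8 and 89.7 RPKM at E11.5 (-0.47 ± 0.08, limma adjusted p = 6.69e-07). Going the other way, Ndufa8 had 39.6, 53.6 and 69.3 RPKM at E14.5 and 34.7, 41.8 and 50.2 RPKM at E11.5 (0.34 ± 0.06, limma adjusted p = 6.96e-07). The assembly-related genes split evenly, with 4 lower and 4 higher of 11. Atp5sl had 3.71, 6.18 and 10.5 RPKM at E14.5 and 3.41, 4.44 and 6.43 RPKM at E11.5 (0.41 ± 0.07, limma adjusted p = 1.09e-06), and Ndufaf3 rose by 0.29 ± 0.08 (limma adjusted p = 0.00128). Smaller rises in Ndufv3 (0.12, limma adjusted p = 0.0483) and Ndufaf5 (0.14, limma adjusted p = 0.0363) were lost in 37 and 15 of 60 leave-outs (adjusted p at most 0.0998 and 0.0939), and that of Ndufaf5 also without the 6 libraries whose markers go against the label (0.169).

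**Figure D5:**
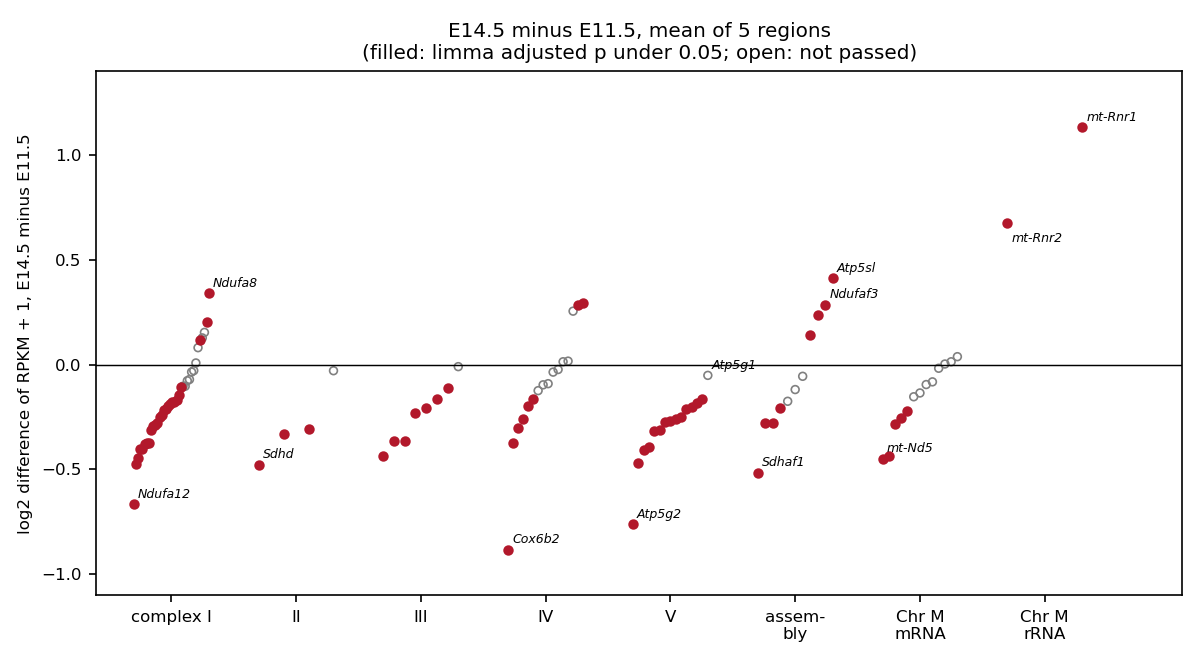
Difference of E14.5 and E11.5 in log2(RPKM + 1), averaged over the 5 regions, for each tested member by complex and for the Chr M messages and rRNAs (n = 15 libraries per stage; filled points passed an adjusted p of 0.05 in limma). Of the complex V genes 14 of 15 are filled and below 0, Atp5g1 lies near 0, and mt-Rnr1 and mt-Rnr2 are the highest points.

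Region by region, the median member differed between E14.5 and E11.5 by -0.14 in the ventral midbrain, -0.13 in the ventral hindbrain, -0.26 in the ventral forebrain, -0.17 in the alar plate and -0.26 in the dorsal midbrain. The median feature differed by -0.03 to -0.07. Members whose 3 E14.5 libraries all lay below the 3 E11.5 libraries numbered 26 in the ventral midbrain (30.2% of features), 34 in the ventral hindbrain (30.6%), 44 in the ventral forebrain (25.6%), 29 in the alar plate (29.2%) and 50 in the dorsal midbrain (30.7%). Members entirely above numbered 9 (26.6%), 12 (27.3%), 1 (24.2%), 4 (25.4%) and 4 (25.0%) in the same order. Differences between regions in these counts were not tested, and the change of run between the stages was not the same in all regions.

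Between the adjacent stages E13.5 and E12.5, 9 members rose, beside 3.26% of features, and 1 fell, beside 2.06%. Those at 5 RPKM or more with the largest rises were Ndufb2 (0.29 ± 0.07, limma adjusted p = 0.0128), Ndufab1, the mitochondrial acyl carrier protein (0.28 ± 0.07), Ndufs6 (0.27 ± 0.07), Cox6c (0.26 ± 0.08), Atp5g1 (0.22 ± 0.07) and Ndufa4 (0.22 ± 0.06), all with limma adjusted p of at most 0.0472, and Ndufs1, the largest core subunit of complex I, fell by 0.11 (limma adjusted p = 0.0249). Each of these stages had a run of its own, so stage and run cannot be told apart. The count depended on which libraries were kept. Without the 3 libraries rich in short features 59 members rose (10.9% of features) and 1 fell (8.29%), with a median of 0.19 in place of 0.12, while without the 6 libraries whose markers go against the label 1 rose, Ndufb2 (1.38% of features), and 0 fell (0.834%). The calls of Ndufb2 and Ndufab1 held in all 60 leave-outs, and that of Atp5g1 was lost in 31 (adjusted p at most 0.105).

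The Chr M messages, which encode the core subunits of complexes I, III, IV and V, were higher in the ventral midbrain wherever they passed. In the ventral midbrain 3, 7 and 5 of 13 were higher than in the dorsal midbrain at E12.5, E13.5 and E14.5, and 0 were lower, against the feature shares given above. mt-Nd4, a proton-pumping subunit of complex I, had 1802, 2402 and 2191 RPKM in the ventral midbrain and 1237, 1258 and 1142 RPKM in the dorsal midbrain at E13.5 (log2 difference 0.80 ± 0.21, limma adjusted p = 0.00522). At E12.5 it had 1768, 1823 and 1863 RPKM in the ventral midbrain and 923, 1155 and 1547 RPKM in the dorsal midbrain (0.62 ± 0.17, limma adjusted p = 0.0220). At E14.5 it had 2233, 2598 and 2502 RPKM in the ventral midbrain and 2124, 1387 and 1610.4 RPKM in the dorsal midbrain (0.54 ± 0.16, limma adjusted p = 0.0144). The regions did not overlap at any of these stages, though the dorsal midbrain spread was wide. mt-Cytb, the core of complex III, was also higher at all 3 stages, by 0.61, 0.62 and 0.48. Among the 5 regions the dorsal midbrain was the low one for mt-Nd4 at E13.5, with a group mean of 1212 RPKM. The other means were 1630 RPKM in the ventral forebrain, 1652 RPKM in the alar plate, 1968 RPKM in the ventral hindbrain and 2132 RPKM in the ventral midbrain. These means are given without a test.

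The mitochondrial rRNAs were also higher in the ventral than in the dorsal midbrain at these stages. mt-Rnr1, the small-subunit rRNA, had 222, 250.4 and 212 RPKM in the ventral midbrain and 104, 129 and 156 RPKM in the dorsal midbrain at E12.5 (0.82 ± 0.22, limma adjusted p = 0.0185). At E13.5 it had 327, 326 and 318 RPKM in the ventral midbrain and 159, 135 and 143 RPKM in the dorsal midbrain (1.15 ± 0.19, limma adjusted p = 0.000196). At E14.5 it had 489.7, 462 and 446 RPKM in the ventral midbrain and 249, 194 and 174 RPKM in the dorsal midbrain (1.19 ± 0.24, limma adjusted p = 0.00137). Every ventral midbrain library was above every dorsal midbrain library. mt-Rnr2, the large-subunit rRNA, differed by 0.81, 0.91 and 1.02. Over time both rRNAs rose and 5 of 13 messages fell, which for the messages is near the share of all features that fell, given above. Stage and run cannot be told apart within a region here either. At E14.5 against E11.5 mt-Rnr1 differed by 1.13 ± 0.10 (174, 274 and 489.7 RPKM as lowest, median and highest at E14.5, and 88.3, 129 and 204 RPKM at E11.5; limma adjusted p = 1.39e-13) and mt-Rnr2 by 0.67 ± 0.09, whereas mt-Nd5 (-0.45 ± 0.08), mt-Nd6 (-0.43 ± 0.10), mt-Nd1 (-0.28 ± 0.07), mt-Atp8 (-0.26 ± 0.07) and mt-Atp6 (-0.22 ± 0.07) fell and the other 8 messages did not pass. Whether the libraries were made from poly(A) RNA or depleted of rRNA, and whether counting used strand, is not given in the sources used here. That bears on the rRNA levels, on mt-Nd6, which lies on the other strand from its neighbours, and on the overlapping pair mt-Atp8 and mt-Atp6. Features listed for tRNAs reached 1624 RPKM (mt-Ty) and share their listed span with neighbouring genes, so they are not read further.

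Reads on Chr M messages per member read put both genomes on 1 scale. The ratio averaged 4.89, 5.01, 5.03 and 5.49 in the ventral midbrain from E11.5 to E14.5, with SDs of 0.443, 0.114, 0.726 and 0.379. In the dorsal midbrain it averaged 3.86, 3.57, 3.54 and 4.39, with SDs of 0.451, 0.696, 0.236 and 0.717. At E12.5 and E13.5 the 3 ventral midbrain libraries were above the 3 dorsal midbrain libraries, and at E11.5 too. At E11.5, however, region and run cannot be told apart for the dorsal midbrain. Ventral midbrain replicate 4 of that stage is also among the libraries whose markers go against the label. At E14.5 a dorsal midbrain library at 5.22 lay above the lowest ventral midbrain library at 5.06.

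Related lists of mitochondrial and energy genes were read in the same fits, against the feature shares given above. Among 14 regulators of mitochondrial transcription and biogenesis, 1 was higher in the ventral midbrain and 10 were lower at E13.5, and 1 and 8 at E14.5. They include Nrf1 (-0.67 ± 0.08 at E13.5, limma adjusted p = 2.13e-05) and Gabpa (-0.51 ± 0.08, limma adjusted p = 0.000202), which activate nuclear genes of the pathway, while the coactivator Ppargc1a was higher at E14.5 (1.67 ± 0.22, limma adjusted p = 7.88e-05). Among 17 glycolytic genes 6 were higher and 4 lower at E13.5, and 7 and 4 at E14.5. Aldoc, the brain form of aldolase, had the largest difference (3.33 at E13.5 and 4.48 at E14.5), followed at E14.5 by Eno2 (1.68), Pfkp (1.47) and Hk1 (1.24). Of 14 genes of the citric acid cycle 0 were higher and 3 lower at E13.5, and 1 and 2 at E14.5, Idh2 among the lower (-0.61 ± 0.16 at E14.5, limma adjusted p = 0.00745). A list of 8 genes held carriers of ADP and phosphate, porins and creatine kinases, and 2 were higher and 2 lower at E13.5. The mitochondrial creatine kinase Ckmt1 (1.25) and the ADP/ATP exchanger Slc25a4 (0.43) were among the higher, and the exchanger Slc25a5 (-0.51) among the lower. Of 24 assembly genes of complexes III and IV and cytochrome c, 3 were higher and 4 lower at E13.5, and 2 and 2 at E14.5. Of 9 genes of pyruvate entry 3 were higher and 2 lower, and 2 and 1.

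Over time, where 41.3% of features fell and 34.9% rose, these lists differed. At E14.5 against E11.5, 11 of 17 glycolytic genes fell and 5 rose, led by Ldha, lactate dehydrogenase A (-1.61 ± 0.09, limma adjusted p = 4.06e-19). Of 14 citric acid cycle genes 10 fell and 2 rose, led by Suclg2 (-1.57 ± 0.11), and of 14 biogenesis genes 11 fell and 1 rose. Tfam, which packages and transcribes mitochondrial DNA, fell by 0.56, Nrf1 by 0.61 and Gabpa by 0.59, and Ppargc1a rose by 1.06 ± 0.10. Of the assembly genes of complexes III and IV and cytochrome c, 12 of 24 fell and 4 rose, and Cycs, cytochrome c, fell by 0.46. Of the list of carriers, porins and creatine kinases 5 of 8 fell and 2 rose, and of the genes of pyruvate entry 3 of 9 fell and 4 rose. Ribosomal protein genes, which are short and highly expressed as the members are, fell in 91 of 99 and rose in 3, with a median of -0.69.

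Markers of cell types were read in the same comparisons, against the feature shares given above. At E13.5, 14 neuron markers summed to 10767 to 11428 RPM in the ventral midbrain and 7513 to 7957 RPM in the dorsal midbrain, with 10 of 14 higher and 0 lower. At E14.5 they summed to 12520 to 13681 RPM in the ventral midbrain and 8270 to 10658 RPM in the dorsal midbrain, with 11 higher, and at E12.5 to 10562 to 11547 RPM and 6561 to 9037 RPM, with 6 higher. Of 15 markers of progenitors and cycling cells, 4 were higher and 8 lower at E13.5, and their sums were 2996 to 3505 RPM in the ventral midbrain and 3660 to 4452 RPM in the dorsal midbrain. At E14.5, 3 were higher and 8 lower, and the sums overlapped, with 2020 to 2664 RPM in the ventral midbrain and 1857 to 3621 RPM in the dorsal midbrain. At E13.5, 4 of 7 microglia markers (48.2 to 99.5 RPM in the ventral midbrain, 26.6 to 31.1 RPM in the dorsal midbrain) and 6 of 13 vessel and pericyte markers (489 to 652 RPM in the ventral midbrain, 442 to 512 RPM in the dorsal midbrain) were also higher. Mesenchyme markers summed to 35.2, 39.2 and 1689 RPM in the ventral midbrain at E13.5, the last in replicate 4, and to 311 to 410 RPM in the dorsal midbrain. Ribosomal protein genes were lower in 25 of 99 at E13.5, near the share of all features that were lower then, and in 64 of 99 at E14.5. Over time, 12 of 14 neuron markers rose at E14.5 against E11.5 and 13 of 15 progenitor markers fell, and the median neuron sum was 11184 RPM at E14.5 and 7009 RPM at E11.5. Their part in the member differences was not tested.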

How the data were processed

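Total RNA of 60 pieces of embryonic mouse brain was isolated with RNeasy and sequenced from Illumina TruSeq libraries, per the labels' protocols. Reads were aligned to mm10 with Bowtie, per the submitters' processing notes. How reads were counted, how shared reads were treated, and poly(A) selection and strand were not given in the sources used here. The authors deposited RPKM values in 1 table of 24378 features by 60 libraries. The unit was read from the values, which, multiplied by the listed length, step in whole reads (100.0% of values within 0.001 of a whole number). Those steps also gave the total reads of each library. A count of 3 reads corresponds to 0.127 to 3.06 RPM, and such limits cover counting error only.

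Groups came from the labels. log2(RPKM + 1) was tested with limma 3.58.1 (R 4.3.3) with a mean-variance trend, over features that averaged 1 RPKM or more in some group of its libraries, and p-values were adjusted by the Benjamini-Hochberg method over all of them. Regions were compared within each stage over its 15 libraries, and stages in 1 fit of all 60. Fold changes on this scale understate the change of low genes. The steps were tested on simulated data. Python 3.11.15, pandas 2.3.3, numpy 2.4.6 and matplotlib 3.10.9 were used for summaries and figures. Gene positions are GENCODE vM21 on mm10, and promoters are RefSeq on GRCm38.p6.

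The members and lists were chosen with earlier results of these data known. Genes were named by rule: in each direction the 6 largest changes among called members with a mean of at least 5 RPKM in either group, all called members where 5 or fewer were called, the 5 highest and 5 lowest levels, sets of paralogs, the 6 most and 6 least variable members, and up to 4 genes of each other list. Exceptions are stated, and 1 called member is counted but not reported here by name. Alternatives were a pseudocount of 0.1, no filter, voom on the recovered reads, a total without Chr M, median-of-ratios scaling, a replicate block, other sets of libraries in the fit and leaving out each library. Added after seeing the data were a covariate for the share of short features, leaving out the 3 libraries rich in them, and leaving out the 6 libraries whose region markers go against the label.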

Additional observations from a re-analysis of the deposited data

Results flagged for a closer look

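In 8 of 90 members (8.89%, against 5.79% of features), every library of 1 region lay higher at E14.5 than at E11.5 and every library of another lay lower, on the log2(RPKM + 1) scale with 3 libraries per group. Cox7a2 differed by -0.22 in the dorsal midbrain and 0.21 in the ventral hindbrain, and Cox8a by -0.26 and 0.30 in the same regions. Uqcrq differed by -0.61 in the dorsal midbrain and 0.34 in the ventral hindbrain. Ndufa13 differed by 0.18 in the alar plate and -0.70 in the dorsal midbrain. Ndufb10 differed by 0.34 in the alar plate, -0.25 in the dorsal midbrain and 0.37 in the ventral hindbrain. Ndufc2 differed by -0.51 in the dorsal midbrain and 0.35 in the ventral midbrain. Of the assembly factors, Ndufaf5 differed by -0.21 in the ventral forebrain, 0.45 in the ventral hindbrain and 0.43 in the ventral midbrain, and Ndufaf6 by -0.41 in the dorsal midbrain, -0.91 in the ventral forebrain and 0.48 in the ventral hindbrain. These differences between regions were not tested, and at E11.5 the libraries whose markers go against the label number 2 in the ventral forebrain, 1 in the alar plate and 1 in the ventral midbrain. The E11.5 dorsal midbrain was also in another run than the other regions of that stage, and the change of run to E14.5 was not the same in all regions.

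In the ventral minus dorsal midbrain contrast, 2 of 90 members (2.22%, against 1.15% of features) had all libraries apart in opposite directions at different stages. Ndufb8 lay at -0.18 at E12.5 and 0.19 at E13.5, a change between stages that was not tested. Uqcrc2 lay at -0.087 at E12.5 and 0.15 at E14.5, and its change between those stages was 0.24 ± 0.10 in limma's interaction test (adjusted p = 0.437).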

How the results depend on the processing

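No named member changed direction under the alternatives run. The median over members did in 4 cases at E12.5. With the short-feature covariate it was 0.04 in place of -0.09 for the ventral minus dorsal midbrain and 0.04 in place of -0.04 for the ventral forebrain against the other regions. Without the 3 libraries rich in short features it was 0.05 in place of -0.03 for the dorsal midbrain and 0.02 in place of -0.04 for the ventral forebrain against the other regions. In 1 fit of all 60 libraries, 6, 22 and 4 members differed between regions at E11.5, E12.5 and E13.5, beside 26.1%, 42.1% and 34.8% of features. Those lower in the ventral than the dorsal midbrain numbered 2, 0 and 1 at E12.5, E13.5 and E14.5 (13.2%, 16.8% and 21.3% of features). Those higher at E13.5 numbered 4 (16.3%). Region contrasts gave 45 higher calls at E12.5, and 4 higher and 5 lower at E13.5, in place of 1, 22 and 20. Of those at E12.5, 44 were in the alar plate (7.47% of features were higher there), the group that holds the outlying replicate 3. With the short-feature covariate, 16, 29 and 7 members differed between regions at E12.5, E13.5 and E14.5 (52.4%, 66% and 23.2% of features). The ventral midbrain was higher in 10 and lower in 3 at E12.5. It was higher in 25 and lower in 7 at E13.5 and lower in 0 at E14.5. Region contrasts then gave 10 higher and 22 lower calls at E12.5 and 33 lower at E13.5, and 14 members rose and 29 fell at E14.5 against E11.5. Without the 3 libraries rich in short features, 3 and 20 members differed between regions at E11.5 and E12.5, the ventral midbrain was higher in 1 and lower in 21 at E12.5, region contrasts gave 20 higher and 13 lower calls at E12.5, and 59 members rose at E13.5 against E12.5. Without the 6 libraries whose markers go against the label, region contrasts gave 1 lower call at E12.5 in place of 3, and 1 member rose and 0 fell at E13.5 against E12.5. With voom, region contrasts gave 1 lower call at E12.5, in the ventral midbrain (2.59% of features were lower). By voom, 1 member was lower in the ventral than the dorsal midbrain at E13.5 (27% of features). It had 19 members rising at E13.5 against E12.5 (10.5% of features) and 5 at E14.5 against E11.5 (33.3%). With a total without Chr M, 1 was lower in the ventral midbrain at E13.5 (25.2% of features), and without the filter also 1. Median-of-ratios scaling gave 1 lower in the ventral midbrain at E14.5 (18.2% of features) and 4 rising at E13.5 against E12.5 (2.14%). The 6 midbrain libraries alone gave 1 lower at E14.5. Feature shares for that fit and for the fit without the filter are not given here. The cause was not tested.

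Leaving out 1 library gave 0 to 3, 1 to 20 and 12 to 25 members differing between regions at E11.5, E12.5 and E13.5. Members higher in the ventral midbrain ranged over 0 to 1, 8 to 17 and 4 to 9 at E12.5, E13.5 and E14.5, and lower ones over 0 to 21, 0 to 5 and 0 to 3. Region contrasts ranged over 0 to 20 higher and 0 to 13 lower at E12.5, and 14 to 28 higher and 11 to 24 lower at E13.5. At E13.5 against E12.5, 2 to 51 rose and 0 to 1 fell. At E12.5 the highest counts between regions came without alar plate replicate 3, where 56.3% of features differed. Shares of features are not given for the other leave-outs. These ranges therefore cannot separate a change in the members from a change in all features.

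The labels do not say that a replicate number marks a shared litter or batch. Same-numbered libraries of different regions had mean correlations of deviations of -0.0282, 0.139, 0.171 and 0.0921 at E11.5 to E14.5 (lowest pairs -0.676, -0.167, -0.223 and -0.114), against 0.0135, -0.0703, -0.0856 and -0.0460 for different numbers. Libraries that correlated best with their own number were 5, 10, 15 and 12 of 15 at E11.5 to E14.5. The design does not say why, and the reason was not tested. With a replicate block, 30 members differed between regions at E13.5 (65.8% of features), 5 were lower in the ventral midbrain at E13.5 and region contrasts gave 34 higher calls. Depth limits low members most, since the smallest library held 0.979 (in units of 1000000) reads.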
